A study of Homo sapiens with 8 samples.

Results

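The RNA levels of 8 cholesterol synthesis genes were described across the 4 lines of H9 hESCs (WA09), a human embryonic stem cell line derived from a blastocyst, that had been kept in culture for increasing lengths of time. The genes, taken by symbol, were HMGCS1, SQLE, INSIG1, FDFT1, LSS, DHCR7, SREBF2 and IDI1. They are 8 of 60675 genes in the tables, and all 8 were among the 19499 genes with enough counts to be tested. P1 hESCs were in the passage 40s, P2 hESCs in the 100s, P3 hESCs in the 200s and P4 hESCs in the 300s, with 2 samples per line and 8 in all. The lines are isogenic descendants of H9, and all were grown without feeder cells in mTeSR1 on Matrigel and detached with dispase. In the study's terms, P3 and P4 hESCs are the culture-adapted lines that carry a survival trait, and P1 and P2 hESCs are not. The paper also describes a copy number gain on chromosome 20 in P3 and P4 hESCs, and normal copy numbers in P1 hESCs. Each passage range is represented by 1 line, so that passage, line and this gain cannot be told apart. The sources do not state whether both samples from 1 line came from different cultures, and p-values then measure only the spread between these samples, which may be technical.

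Cholesterol is built from acetyl-CoA through mevalonate, isoprenoid units, squalene and lanosterol, in steps carried out largely at the endoplasmic reticulum. The genes of this route are controlled together. When membrane sterol is low, the transcription factor SREBP-2 is released from the endoplasmic reticulum with its escort SCAP and switches on its targets, and when sterol is high, the INSIG proteins hold it back. Dividing stem cells need sterol for new membrane.

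Among the members, SREBF2 encodes SREBP-2 itself, and INSIG1 encodes one of the proteins that retain it and is also a target of it. The other members are enzymes. HMGCS1 makes HMG-CoA at the start of the mevalonate route, IDI1 interconverts the 5-carbon isoprenoid units, FDFT1 makes squalene, SQLE oxidises squalene, LSS closes the ring to lanosterol, and DHCR7 carries out a last reduction to cholesterol. On GRCh38 (GENCODE release 29), HMGCS1 lies at chr5:43289395-43313512, IDI1 at chr10:1039152-1049170, LSS at chr21:46188141-46228824, DHCR7 at chr11:71428193-71452868, INSIG1 at chr7:155297776-155310235 and SREBF2 at chr22:41833079-41907308. No member lies on chromosome 20, where the study places its amplified locus.

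The promoter table from RefSeq (GRCh38.p14) held 10 start sites of 6 members, and SQLE and FDFT1 had no entry. The 250 bases before each start were searched on both strands for CACCCCAC, a core of the sterol regulatory element that SREBP proteins bind, for the looser TCACNCCAC, for the CCAAT box bound by NF-Y and for the GC box GGGCGG bound by Sp1. SREBF2 was the 1 member with CACCCCAC, which stood in 2.43% of all 35116 promoters in the table, and the same site also matched TCACNCCAC, which stood in 0.883%. All 6 members had a CCAAT box at 1 start or more (7 of the 10 starts), against 32% of all promoters, and all 6 had a GC box (9 of the 10 starts), against 42.6%. These matches are a description of letters within a short window and not of binding, and the table holds several starts for many genes. The 3 windows that lie outside the annotated gene are shown because they carry the CCAAT box that the members share and the 1 sterol element. They are from the + strand at chr22:41832942-41833033 for SREBF2 and at chr7:155297678-155297742 for INSIG1, and from the - strand at chr21:46228890-46228954 for LSS. Capitals mark the sterol element (TCACCCCAC) and the CCAAT box, which reads ATTGG on this strand.
SREBF2: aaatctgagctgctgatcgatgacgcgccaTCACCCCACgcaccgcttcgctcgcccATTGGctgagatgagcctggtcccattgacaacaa
INSIG1: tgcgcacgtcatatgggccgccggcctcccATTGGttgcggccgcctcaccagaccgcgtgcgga
LSS: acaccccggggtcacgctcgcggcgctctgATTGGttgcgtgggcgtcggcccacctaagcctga

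The samples had between 26874899 and 38095600 expected counts, the counts that RSEM estimates for each gene, and each member had between 1737 and 22121 of them in every sample. The 37 mitochondrial genes took 5.89% to 9.84% of the counts in 5 samples and 17.2% to 18.5% in the other 3, which were the second P1 sample, the first P3 sample and the first P4 sample. All 8 pluripotency markers were above 1 TPM in every sample, with summed levels of 3038 to 4450 TPM in P1 and P2 hESCs and 2934 to 4552 TPM in P3 and P4 hESCs. POU5F1 (1095 to 2421 TPM) led these sums, which hide single markers. PODXL had 494 to 610 TPM in P1 and P2 hESCs and 260 to 369 TPM in P3 and P4 hESCs, while the other markers overlapped. Of the 8, 1 (12.5%) was lower in P3 and P4 hESCs at an adjusted p under 0.05 in edgeR, beside 7.54% of the tested genes. Markers of hepatocytes, which make much cholesterol, summed to 5.86 to 6.41 TPM in P1 and P2 hESCs and 2.5 to 9.74 TPM in P3 and P4 hESCs, with TTR listed at 0 in every sample. Mesendoderm markers summed to at most 4.26 TPM, trophectoderm and amnion markers to at most 19.1 TPM, and the neuroectoderm list, of which NES and OTX2 are also expressed by stem cells, to 178 to 301 TPM. The endoderm factor gene FOXA2 had 6.76 and 6.33 CPM in the P3 samples and under 1 CPM in the other 6. In P3 against P2 hESCs, FOXA2 was called higher, and EOMES of the mesendoderm markers and HAND1 of the trophectoderm markers were called lower. EOMES had 2.87 and 2.05 CPM in P2 hESCs and 0.0948 and 0.0837 in P3, and HAND1 had 1.85 and 2.27 CPM in P2 hESCs and was at 0 in both P3 samples. The part of the cells behind these markers in the members' values was not tested. In these bulk samples, fewer cells of a type and less RNA per cell cannot be told apart.

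All 8 members were well expressed. By TPM, a level per transcript length that allows genes to be set side by side, FDFT1 was highest with a mean of 479 TPM over the 8 samples (range 293 to 583), followed by HMGCS1 with 203 TPM (135 to 300). FDFT1 exceeded HMGCS1 in each of the 8 samples, although their ranges met at the edge. SREBF2 with 106 TPM (79.7 to 128), SQLE with 90.7 TPM (63.0 to 119) and DHCR7 with 89.2 TPM (70.6 to 128) formed a middle group whose ranges overlapped. IDI1 with 57.4 TPM (40.6 to 94.7) and LSS with 54.4 TPM (40.9 to 63.5) also overlapped, and INSIG1 was lowest by mean with 36.3 TPM (26.4 to 49.2), a range that overlapped with those of IDI1 and LSS. IDI2, the paralog of IDI1, was listed at 0 TPM in all 8 samples.

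Between samples the members were followed as TMM-scaled CPM, counts relative to the library size that leave out the estimated length of a gene. Of the regulators, SREBF2 had 342 and 532 CPM in P1 hESCs, 354 and 383 in P2, 461 and 360 in P3, and 345 and 355 in P4. The second P1 sample and the first P3 sample were above the rest, and the other 6 lay within 342 to 383 CPM. INSIG1 had 54.9 and 89.8 CPM in P1 hESCs, 65.2 and 52.1 in P2, 94.2 and 86.4 in P3, and 59.6 and 87.2 in P4. Both P3 samples were high, but 1 sample each of P1 and P4 hESCs reached the same range.

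Of the enzymes before squalene, HMGCS1 had 456 and 350 CPM in P1 hESCs, 494 and 403 in P2, 442 and 617 in P3, and 423 and 312 in P4. One P3 sample was the highest and one P4 sample the lowest, and the P3 and P4 samples did not overlap, while P1 and P2 hESCs overlapped with both. IDI1 had 75.5 and 81.4 CPM in P1 hESCs, 80.5 and 56.5 in P2, 98.0 and 123 in P3, and 85.2 and 65.5 in P4. Both P3 samples were above the other 6 in CPM. By TPM only the second P3 sample stood out (94.7), and the first (51.6) was below the first P1 sample (53.7). FDFT1 had 411 and 349 CPM in P1 hESCs, 469 and 513 in P2, 671 and 554 in P3, and 499 and 484 in P4. The P1 samples were the lowest 2 of the 8 in CPM, and the P3 samples the highest 2. By TPM the second P2 sample was highest (583), and the first P4 sample (402) was below the first P1 sample (410).

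Of the enzymes from squalene on, SQLE had 169 and 221 CPM in P1 hESCs, 182 and 158 in P2, 243 and 215 in P3, and 148 and 170 in P4. Its P3 samples and the second P1 sample were highest. LSS had 156 and 214 CPM in P1 hESCs, 148 and 157 in P2, 229 and 190 in P3, and 200 and 114 in P4. DHCR7 had 138 and 252 CPM in P1 hESCs, 133 and 148 in P2, 199 and 116 in P3, and 154 and 118 in P4. For both genes the 3 highest samples were the 3 with a high mitochondrial share, and the lines overlapped, other than P2 and P3 hESCs for LSS.

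**Figure D1:**
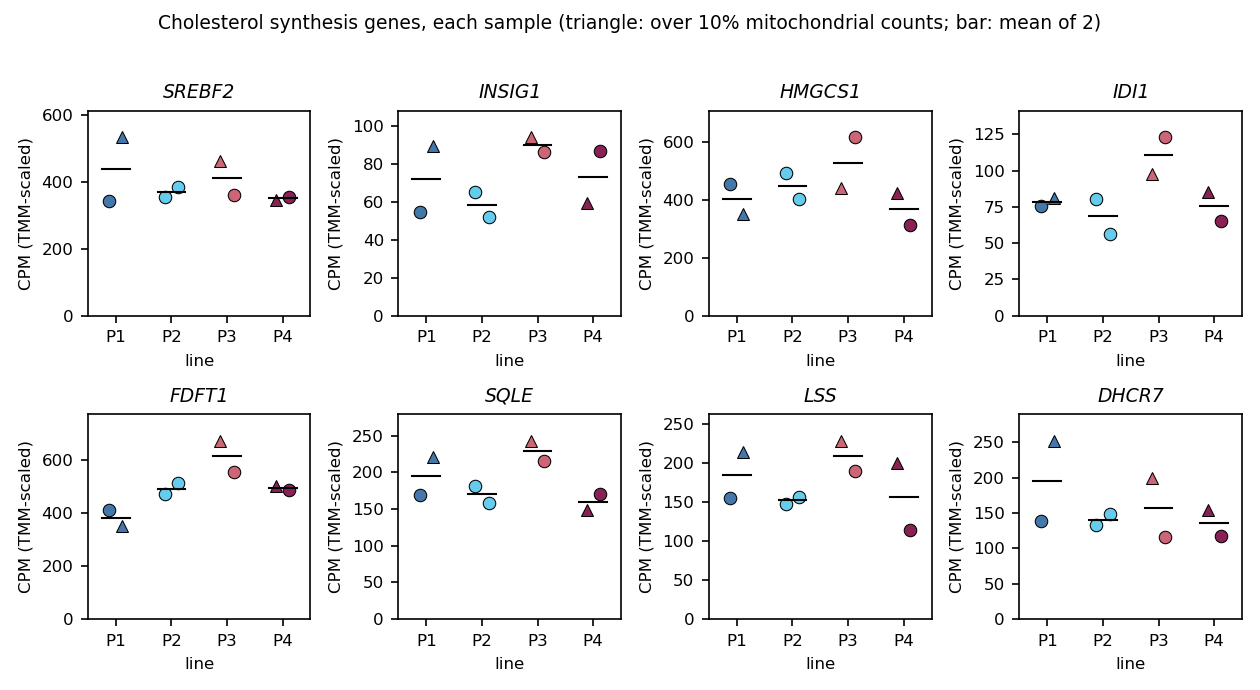
Level of each of the 8 cholesterol synthesis genes (y axis, TMM-scaled CPM, from 0) in each sample of the 4 lines (x axis), with triangles for the 3 samples with over 10% mitochondrial counts and a bar for the mean of 2 samples. FDFT1 was lowest in the P1 samples (349 and 411 CPM), IDI1 was highest in the P3 samples (98.0 and 123 CPM), and SREBF2 and DHCR7 differed more between the 2 samples of P1 hESCs than between line means.

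The highest sample of a member exceeded the lowest by 1.55-fold (SREBF2) to 2.18-fold (DHCR7 and IDI1). The 2 samples of a line differed by a mean of 0.17 (FDFT1) to 0.55 (DHCR7) on the log2 scale over the 4 lines. The means of the 4 lines spanned 0.28 (SREBF2) to 0.70 (IDI1) on that scale. For FDFT1, IDI1, SQLE and HMGCS1 the span of the line means (0.69, 0.70, 0.53 and 0.52) was larger than any difference within a line, which was at most 0.28, 0.51, 0.39 and 0.48. For SREBF2, INSIG1, LSS and DHCR7 it was smaller than the largest difference within a line, which was 0.64, 0.71, 0.81 and 0.87.

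The comparison of P3 and P4 hESCs with P1 and P2 hESCs (4 samples against 4) asks whether RNA levels moved with culture adaptation. No member was called, that is, passed both a 2-fold difference (1 on the log2 scale, in either direction) and a Benjamini-Hochberg adjusted p of 0.01 in edgeR's quasi-likelihood test, while 2.2% of the tested genes were called. No member had an unadjusted p under 0.05 in edgeR, which 25.5% of the tested genes had, none was called with DESeq2, and none had an adjusted p under 0.05 in edgeR, which 7.54% of the tested genes had. The samples of all 8 members overlapped between the early and late lines, and 17.6% of the tested genes did not overlap. With 8 members, this is near that share and is not read as a difference. Of the members, 6 had a positive fitted log2 fold change and 2 a negative one, with a median of 0.10 beside 0.01 over all tested genes. With 1 sample left out in turn, this median lay between 0.04 (without the first P3 sample, with 4 positive and 4 negative) and 0.25 (without the second P4 sample), and without the second P1 sample it was 0.22, with 7 positive.

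FDFT1 (log2 fold change 0.34, SE 0.16, adjusted p = 0.22 in edgeR), IDI1 (0.34, SE 0.20, adjusted p = 0.30) and INSIG1 (0.32, SE 0.20, adjusted p = 0.34) had the highest values. DHCR7 had the lowest (-0.20, SE 0.24, adjusted p = 0.65). The log2 fold change of SREBF2 itself was -0.08 (SE 0.17). The 95% confidence intervals of all 8 lay between -0.72 and 0.77 on the log2 scale, and a 2-fold difference lay outside each of them. These intervals count the samples of a line as independent. They therefore cannot exclude a 2-fold difference between early and late lines in general. On the log2(TPM + 1) scale 3 members were positive and 5 negative, with a median of -0.08 beside -0.09 over all genes.

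Between lines, comparisons used a model with 4 groups of 2 samples. P2 hESCs compared with P1 hESCs had no member called and none with an adjusted p under 0.05 in edgeR, and over all tested genes 0% were called and 0.00513% had an adjusted p under 0.05. No member had an unadjusted p under 0.05, beside 9.14% of the tested genes, and none was called with DESeq2. FDFT1 (0.37, SE 0.20) and HMGCS1 (0.15, SE 0.24) had positive log2 fold changes and the other 6 negative ones, down to -0.47 (SE 0.30) for DHCR7.

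P3 and P4 hESCs were each compared with the same P1 samples, so their values are set side by side and are not independent. Over all tested genes, 3.93% were called and 12.5% had an adjusted p under 0.05 for P3 hESCs, and 2.11% and 5.94% for P4 hESCs. No member was called in either comparison, by edgeR or by DESeq2. FDFT1 in P3 hESCs was the 1 member with an adjusted p under 0.05 in edgeR in any of the 6 comparisons, with a mean of 612 ± 82.6 CPM against 380 ± 44.2 CPM in P1 hESCs (SD, n = 2 each). Its log2 fold change was 0.69 (SE 0.20, adjusted p = 0.04 in edgeR's quasi-likelihood test), a 1.61-fold difference with a 95% interval of 1.20 to 2.17. With DESeq2 the log2 fold change was 0.70 (adjusted p = 0.0064). Without the second P1 sample it was 0.58 with an adjusted p of 0.27 in edgeR, without the first P3 sample it was 0.55 (adjusted p = 0.16), and on log2(TPM + 1) in limma it was 0.62 (adjusted p = 0.23). The adjusted p in edgeR was 0.064 without the first P1 sample, 0.083 and 0.082 without the first or the second P2 sample, and 0.096 with only the 4 samples of both lines. In P4 hESCs the log2 fold change of FDFT1 was 0.37 (SE 0.20, adjusted p = 0.30 in edgeR). IDI1 had 0.50 (SE 0.22) for P3 hESCs, where it was the other member with an unadjusted p under 0.05 (29.5% of the tested genes), and -0.06 (SE 0.22) for P4 hESCs, where no member and 21.5% of the tested genes had an unadjusted p under 0.05. For DHCR7 the values were -0.31 (SE 0.30) for P3 and -0.52 (SE 0.30) for P4 hESCs, and for SREBF2 -0.09 and -0.32 (SE 0.23 each).

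P3 hESCs had the highest mean CPM of 6 members (HMGCS1, IDI1, FDFT1, SQLE, LSS and INSIG1), and this line stands in the next 2 comparisons, which share its samples. By mean TPM, P2 hESCs exceeded P3 hESCs for HMGCS1 (243 against 223 TPM) and FDFT1 (551 against 533 TPM). For IDI1, SQLE, LSS and INSIG1, P3 hESCs had the highest mean TPM too, though INSIG1 was nearly level with P4 hESCs (37.9 against 37.8 TPM). In P3 hESCs compared with P2 hESCs, all 8 log2 fold changes were positive, from 0.16 (DHCR7 and SREBF2) to 0.69 (IDI1), with a median of 0.38 beside -0.01 over all tested genes, of which 49.6% were positive. No member was called or had an adjusted p under 0.05 in edgeR, beside 3.42% and 11.7% of the tested genes, and none was called with DESeq2. An unadjusted p under 0.05 was found for 2 of the 8 members and 29.2% of the tested genes, and the 2 were IDI1 (log2 fold change 0.69, SE 0.23, adjusted p = 0.066) and INSIG1 (0.62, SE 0.26, adjusted p = 0.13 in edgeR). For IDI1 the adjusted p was 0.034 with DESeq2 and 0.028 in edgeR with no filter on low counts.

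In P4 hESCs compared with P3 hESCs, all 8 log2 fold changes were negative, from -0.55 (IDI1) to -0.21 (DHCR7), with a median of -0.37 beside 0.01 over all tested genes, of which 49.3% were negative. No member was called or had an adjusted p under 0.05 in edgeR, beside 0.815% and 3.31% of the tested genes, and none was called with DESeq2. SQLE (-0.53, SE 0.20, adjusted p = 0.18), IDI1 (-0.55, SE 0.23, adjusted p = 0.21) and HMGCS1 (-0.53, SE 0.24, adjusted p = 0.26 in edgeR) had an unadjusted p under 0.05, 3 of the 8 members beside 19.2% of the tested genes. The shared sign is a description, because the members share libraries and their levels move together in part.

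The sign in P3 against P2 hESCs depended on the scale. On log2(TPM + 1), 4 members were positive and 4 negative, with a median of -0.01, and the median of all genes was -0.21 on that scale. TPM divides by the length that RSEM estimates for the expressed transcripts. That length was shorter in P2 than in P3 hESCs for 6 of the members, for example 4163 against 4771 bases for SREBF2 and 2280 against 2755 bases for INSIG1 (means of 2 samples), and longer for SQLE and IDI1. TPM also leaves out the TMM factors, which were 1.081 and 1.087 for the P2 samples and 0.8311 and 1.037 for the P3 samples. The part of length or of these factors in the change of sign was not tested. With the mitochondrial share as a covariate, or without the first P3 sample, 6 of the 8 were positive, and without the second P3 sample 7 were. In P4 against P3 hESCs, 7 of the 8 were negative on log2(TPM + 1) and 7 without the first P3 sample.

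**Figure D2:**
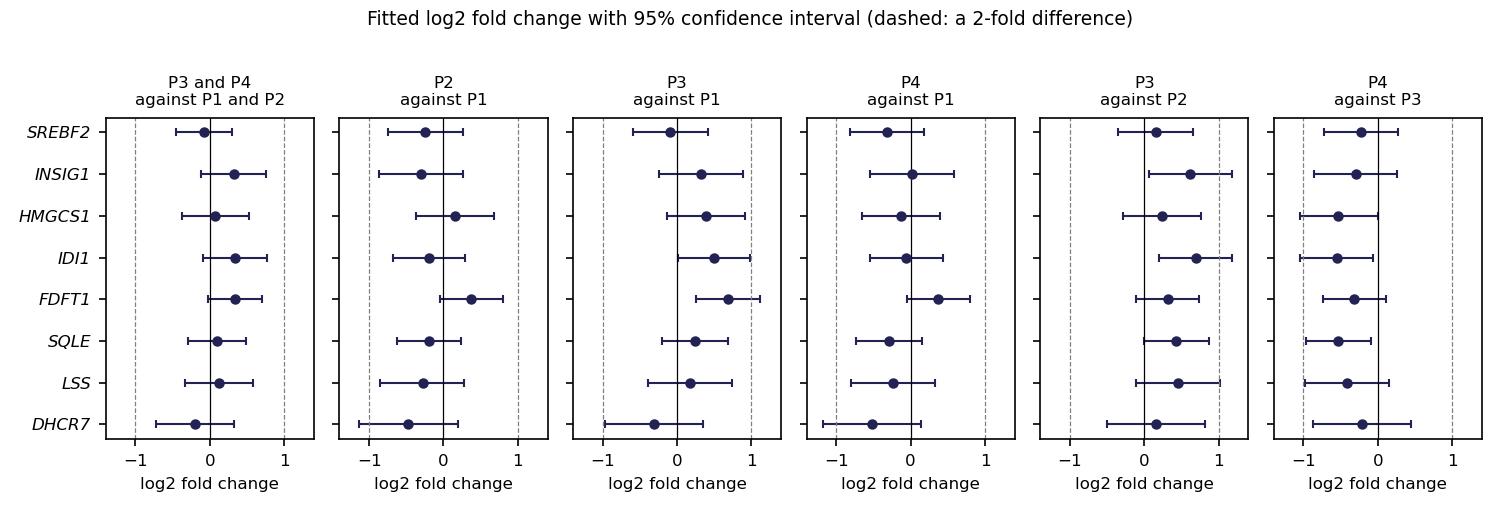
Fitted log2 fold change of each member (points, x axis) with its 95% confidence interval (bars) in each of the 6 comparisons, with dashed lines at a 2-fold difference. All 8 points lie right of 0 in P3 against P2 hESCs (0.16 to 0.69) and left of 0 in P4 against P3 hESCs (-0.55 to -0.21), and no point reaches a dashed line.

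The mitochondrial share separated the 2 samples of P1, P3 and P4 hESCs, and the members did not all follow it. No member was lower in the sample with the higher share in all 3 lines, whereas 13.7% of the tested genes were. LSS (by 0.45, 0.27 and 0.81 log2 CPM in P1, P3 and P4 hESCs) and DHCR7 (by 0.87, 0.78 and 0.39) were higher in the sample with the higher share in all 3 lines. How many of all tested genes were higher in all 3 lines was not counted. On log2 TPM the difference of LSS in P3 hESCs was -0.30, and DHCR7 remained higher in all 3 (by 0.62, 0.32 and 0.20). HMGCS1 was lower in that sample in P1 and P3 hESCs (by -0.38 and -0.48) and higher in P4 hESCs (by 0.44). Among the 5 samples with under 10% mitochondrial counts the members' median for P3 and P4 against P1 and P2 hESCs was 0.10. Among the other 3, where the second P1 sample was the only early one, this median was -0.08. The part of the mitochondrial share in the members' levels was not tested.

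**Figure D3:**
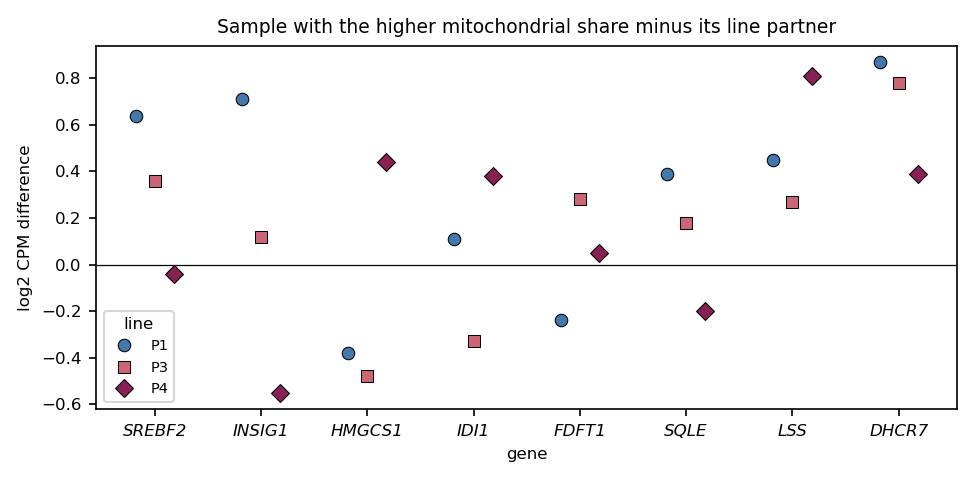
Difference in log2 CPM (y axis) between the sample with the higher mitochondrial share and the other sample of its line, for each member (x axis) in P1, P3 and P4 hESCs. DHCR7 and LSS lie above 0 in all 3 lines, with DHCR7 at 0.87, 0.78 and 0.39.

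Over the 8 samples, the log2 CPM of the members correlated with each other to unequal degrees. Pearson's r over the 28 pairs ran from -0.35 (DHCR7 and HMGCS1) to 0.91 (DHCR7 and SREBF2), with a median of 0.33, and 11 pairs were above 0.5 and 5 below 0. INSIG1 and SQLE had r = 0.81, and IDI1 and HMGCS1 had r = 0.70. SREBF2 and HMGCS1, the factor and one of its targets, had r = -0.32. These values are descriptions over 8 points that share libraries, lines and the mitochondrial share. The mean of the members' standardised levels was highest in the P3 samples (1.07 and 0.59) and the second P1 sample (0.51), and lowest in the second P4 sample (-0.68).

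The genes whose log2 CPM was most like this mean, by Pearson's r over the 8 samples, were TMEM248 (0.98), ORMDL3 (0.965), EIF4E1B (0.965), WFDC1 (0.964), KCNJ1 (0.959), TSPAN3 (0.959), ZDHHC15 (0.959), TMEM98 (0.957), HACD2 (0.956) and RPH3A (0.954). None of these 10 is in the lists of sterol and lipid genes. The nearest listed gene was LBR, which reduces a double bond of the sterol nucleus, at rank 51 with r = 0.92, followed by the fatty acid desaturase genes FADS1 (0.91) and FADS2 (0.89). Of the 58 tested genes of these lists, 29 (50%) had r above 0.5, and 3616 of the 19491 tested genes outside the members (18.6%) did.

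The rest of the pathway was read from lists of 59 genes, of which 58 were tested. For P3 and P4 against P1 and P2 hESCs, none of the 15 other cholesterol synthesis enzymes was called in edgeR (12 positive and 3 negative, median log2 fold change 0.19), and the 9 SREBP regulators had none called (5 positive and 4 negative, median 0.08). Of LXR targets and sterol disposal, 1 of 10 was called higher (median 0.05), and of sterol uptake and transport none of 5 (median -0.18). None of the 10 genes of fatty acid synthesis (median 0.25) or the 9 of the isoprenoid branch (median 0.11) was called. Of all 58 genes, 1 (1.72%, beside 2.2% of the tested genes) was called by edgeR and 1 by DESeq2, and 11 (19%, beside 25.5%) had an unadjusted p under 0.05 in edgeR.

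Among the regulators that work with SREBP-2, INSIG2, the second retention protein, had 22.5 and 40.2 CPM in P1 hESCs, 13.4 and 9.33 in P2, 22.3 and 20.2 in P3, and 16.2 and 22.8 in P4. SCAP, the escort of SREBP-2, had 137 and 223 CPM in P1 hESCs, 113 and 128 in P2, 172 and 103 in P3, and 137 and 134 in P4. SREBF1, which encodes the fatty acid regulating relative SREBP-1, had 92.1 and 189 CPM in P1 hESCs, 69 and 77.7 in P2, 98.1 and 87.5 in P3, and 128 and 80.7 in P4. All 3 were highest in the second P1 sample, and early and late samples overlapped. Their log2 fold changes in P3 and P4 against P1 and P2 hESCs were -0.06 (SE 0.37), -0.14 (SE 0.22) and -0.12 (SE 0.29). None of the 3 had an adjusted p under 0.05 in any of the 6 comparisons, and INSIG2 had a log2 fold change of -1.46 (SE 0.30, adjusted p = 0.18 in edgeR) in P2 against P1 hESCs.

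ABCA1, which exports cholesterol to apolipoproteins and is a target of the sterol sensor LXR, had 44.6 and 39.4 CPM in P1 hESCs, 29 and 27.6 in P2, 99.7 and 83.5 in P3, and 83.8 and 51.1 in P4. Every late sample was above every early one, and the second P4 sample was the nearest to them. The log2 fold change was 1.18 (SE 0.22, adjusted p = 0.0096 in edgeR) in P3 and P4 against P1 and P2 hESCs and 1.69 (SE 0.24, adjusted p = 0.0011) in P3 against P2 hESCs. The first of these adjusted p lay from 0.015 to 0.038 without any 1 sample other than the second P4 sample, and the second was 0.014 and 0.02 in edgeR without the first or the second P2 sample. On log2(TPM + 1) in limma they were 0.049 and 0.063. In P3 and P4 against P1 and P2 hESCs the log2 fold change was 1.16 (adjusted p = 0.013 in edgeR) with the replicate number as a block. It was 0.99 (adjusted p = 0.15 in edgeR) among the 5 samples with under 10% mitochondrial counts. Among the other 3, where the second P1 sample was the only early one, the log2 fold change was 1.23.

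In P3 against P2 hESCs, 3 of the 58 listed genes (5.17%) were called, namely ABCA1, EBP and ELOVL6, beside 3.42% of the tested genes. An adjusted p under 0.05 in edgeR was found for 8 of the 58 (13.8%), 7 higher and 1 lower in P3 hESCs, beside 11.7% of the tested genes. EBP, the sterol isomerase of the late pathway, at chrX:48521158-48528716, had 55.4 and 57.5 CPM in P2 hESCs and 191 and 110 in P3 hESCs, a log2 fold change of 1.41 (SE 0.28, adjusted p = 0.0079 in edgeR). ELOVL6, a fatty acid elongase, had 97.9 and 86.4 CPM in P2 hESCs and 197 and 207 in P3 hESCs (1.13, SE 0.19, adjusted p = 0.0035 in edgeR). Without the first P3 sample the values were 0.96 (adjusted p = 0.055) for EBP and 1.17 (adjusted p = 0.012 in edgeR) for ELOVL6. Leaving out a P2 sample gave adjusted p of 0.059 and 0.068 in edgeR for EBP and 0.03 and 0.076 for ELOVL6, and leaving out a P1 sample gave 0.015 for EBP each time. On log2(TPM + 1) in limma the adjusted p was 0.02 for EBP and 0.11 for ELOVL6. The 15 other cholesterol synthesis enzymes had a median log2 fold change of 0.48 in this comparison, with 13 positive, and the 9 isoprenoid genes a median of 0.22, with all positive, on the CPM scale only, since the median of all genes moved by -0.21 on log2(TPM + 1).

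**Figure D4:**
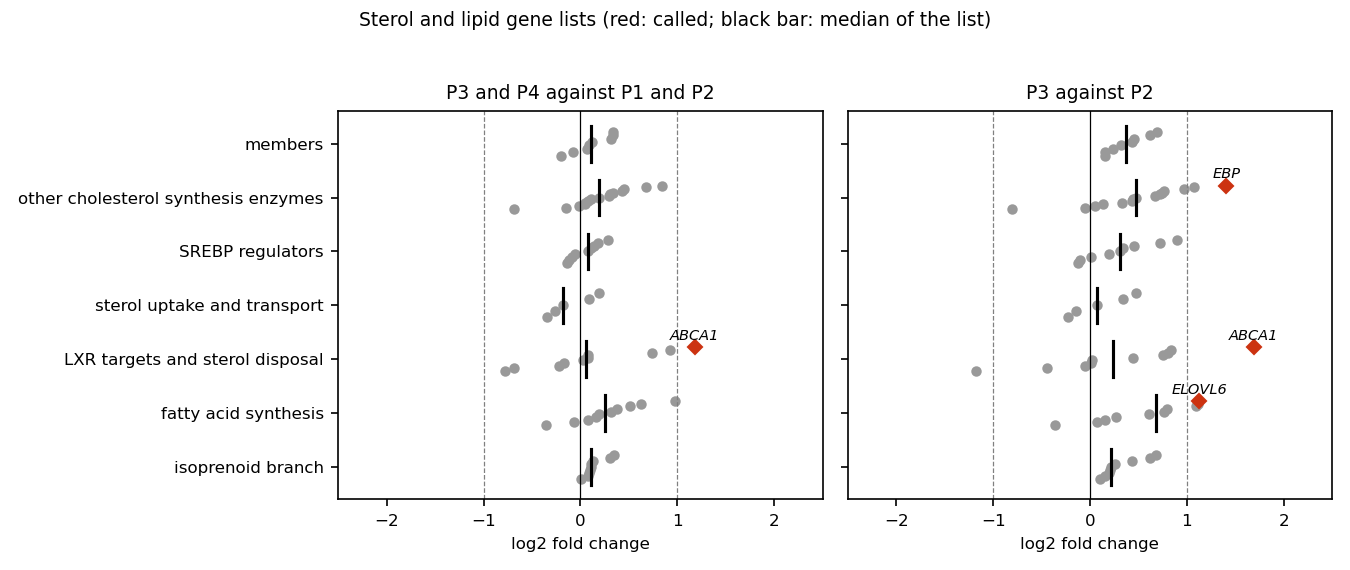
Log2 fold change (x axis) of each tested gene of the members and of 6 other sterol and lipid lists (rows), in P3 and P4 against P1 and P2 hESCs (left) and in P3 against P2 hESCs (right), with called genes as red diamonds and the median of each list as a bar. ABCA1 (1.18) is called on the left, EBP, ABCA1 and ELOVL6 on the right, and the members lie between -0.20 and 0.69 in both.

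**Figure D5:**
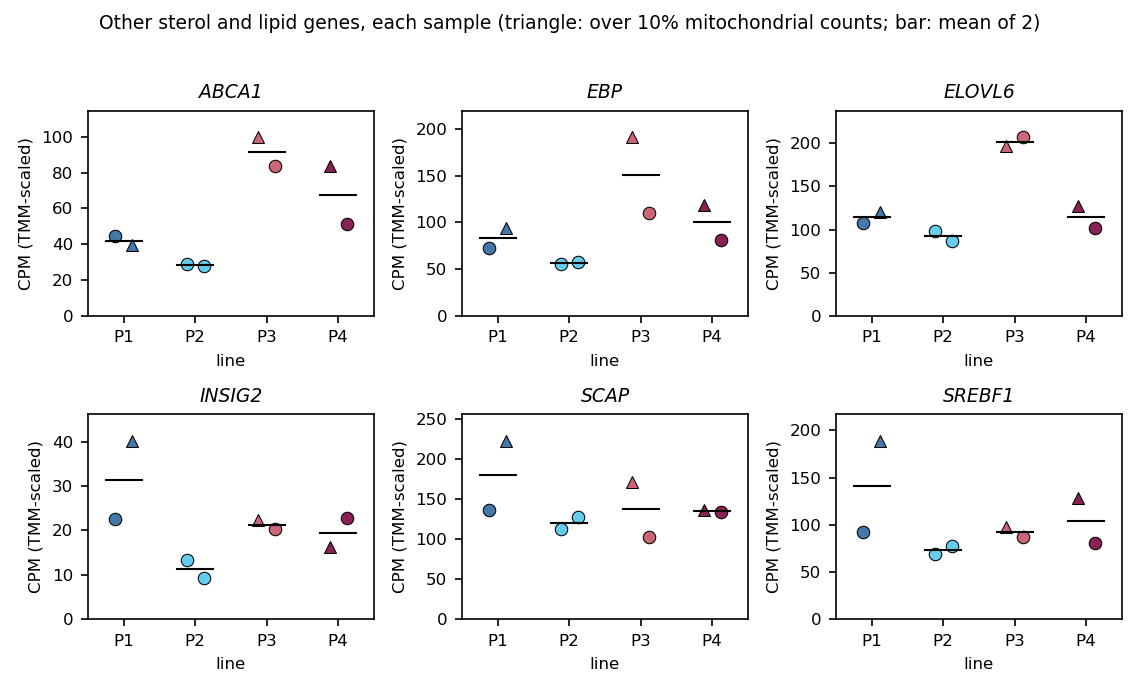
Level of 6 other sterol and lipid genes (y axis, TMM-scaled CPM, from 0) in each sample of the 4 lines (x axis), drawn as for the members. ABCA1 was above its early samples in all 4 late samples (51.1 to 99.7 CPM beside 27.6 to 44.6 CPM), and INSIG2, SCAP and SREBF1 were highest in the second P1 sample.

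FDFT1 lies at chr8:11795573-11839309 and SQLE at chr8:124998497-125022283 on GRCh38. FDFT1, HMGCS1, IDI1, LSS and SREBF2 share exon sequence with annotated RNAs on the other strand (AC069185.1, AC114947.2, IDI2-AS1, AP001468.1 with AP001469.1, and SREBF2-AS1). The library kit keeps strand, but whether counting used it is not given in the sources used here, so a part of these counts could come from the partner. SQLE, INSIG1 and DHCR7 have no such overlap of exons.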

How the data were processed

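RNA-seq libraries of P1, P2, P3 and P4 hESCs (2 samples each) were analysed from the gene tables of the authors. Per the labels and the submitters' processing notes, reads from a stranded mRNA kit were checked with FastQC, trimmed with Trim Galore, aligned with STAR 2.7.3a to GRCh38 and quantified with RSEM 1.3.3. The annotation release and strand setting are not given in the sources used here. The authors deposited expected counts per gene, which are estimated and not normalized (12% of values were not whole), TPM values and transcript lengths per gene, without pooling samples.

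Expected counts were rounded and analysed with edgeR 4.0.16 in R 4.3.3, with TMM factors and filterByExpr over the 4 lines. The quasi-likelihood test compared 2 groups of 4 samples, or lines in a model with 4 groups of 2. A gene was called at a size over 1 on the log2 scale together with a Benjamini-Hochberg adjusted p below 0.01, the thresholds of the study, whose tool was DESeq2. The SE was the fold change divided by the square root of F. Adjustment was over all 19499 tested genes in each of 6 comparisons.

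The alternatives were DESeq2 1.42.0, its size factors in edgeR, no filter, the replicate number as a block, limma 3.58.1 on log2(TPM + 1) and on log2(TPM + 0.1), no mitochondrial genes, the mitochondrial share as a covariate, the 4-group model for early against late lines, only the samples compared, adjusted p under 0.05 alone, and each sample left out. Fits on the 5 samples under and the 3 over 10% mitochondrial counts, and counts of pathway genes under all alternatives, were added after seeing the data. The fits were tested on simulated data.

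Named genes were the 8 members, INSIG2, SREBF1 and SCAP, listed genes called in a comparison (at most 5 per list), and the 10 genes most like the members' mean level (log2 of CPM + 0.5). FADS1, FADS2 and LBR were named after their values were seen. The members and lists were chosen with earlier results of these data known. Some genes of the lists and of the naming rule are not reported here, and the counts leave them out. A table of gene names matched 56558 of 60675 identifiers. The depth of 26874899 to 38095600 counts places 3 counts at 0.0787 to 0.112 CPM, far below every member.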

Additional observations from a re-analysis of the deposited data

Results flagged for a closer look

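Within the early lines or the late lines (4 samples each), 3 of 28 groups checked held a sample that stood apart from the other 3, with a gap to the nearest over the range of the group above Dixon's 95% critical value on log2 CPM. Chance alone would mark about 1 in 20 groups, or 1.4 of 28, if each group were 4 independent draws from 1 population. The groups mix lines and share libraries, so 3 beside 1.4 is not read as an excess. LSS in the second P1 sample (214 CPM beside 148 to 157 CPM in the other P1 and P2 samples) had a ratio of 0.849, and DHCR7 in the same sample (252 CPM beside 133 to 148 CPM) had 0.833. SREBF2 in the first P3 sample (461 CPM beside 345 to 360 CPM in the other P3 and P4 samples) had 0.854. These samples had 18.5% and 18.4% mitochondrial counts, the highest shares of the 8. The part of that share in these values was not tested.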

How the results depend on the processing

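Of 997 values of 57 log2 fold changes under the alternatives, 904 kept their sign and their side of the thresholds, 30 kept their sign and no longer passed, and 63 changed sign. The 30 all fell on the called fold changes, which alone had a call to lose. ABCA1 lost it in 12 of 19 alternatives in P3 and P4 against P1 and P2 hESCs. In P3 against P2 hESCs, ABCA1 lost it in 4 of 17, EBP in 8 of 17 and ELOVL6 in 6 of 17. The sign changes touched 30 fold changes, none of them called, with a main value of at most 0.47 in size, and 56 were of members. The number of members called stayed at 0 in all 6 comparisons under every alternative run, other than an adjusted p under 0.05 without a minimum fold change, which gave 1 (FDFT1) in P3 against P1 hESCs. The SD of the members within a line averaged 0.25 log2 CPM, which limits what 2 samples a line can resolve. The cause of the changes below was not tested.

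The replicate number as a block called 0 pathway genes in P3 and P4 against P1 and P2 hESCs (1 without it) and 1 in P3 against P1 hESCs (0 without it), and it left the count of members called at 0 in each comparison. The replicate differences of the pairs of lines correlated across genes with r from -0.119 to 0.178, so the numbers were not taken to pair the samples.

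For P3 and P4 against P1 and P2 hESCs, where 1 pathway gene was called (ABCA1), the count was 0 with log2(TPM + 1) and with log2(TPM + 0.1), 0 with only the 5 samples under 10% mitochondrial counts, 0 with only the 3 over it, 4 at an adjusted p under 0.05, 2 without the second P4 sample and 0 without any other 1 sample, a range of 0 to 2. For P2 against P1 hESCs (0) it was 1 with DESeq2 and 1 with no filter. For P3 against P1 hESCs (0) it was 2 with DESeq2, 3 with no filter, 1 with the mitochondrial covariate, 1 with only the lines compared, 3 at an adjusted p under 0.05, and 0 to 1 with 1 sample left out. For P4 against P1 hESCs (0) it was 1, 2 and 2 with DESeq2, no filter and an adjusted p under 0.05. For P3 against P2 hESCs (3) it was 6 with DESeq2, 6 with no filter, 0 on either TPM scale, 8 at an adjusted p under 0.05, and 0 to 4 with 1 sample left out. For P4 against P3 hESCs (0) it was 3 with DESeq2, 3 with no filter and 2 at an adjusted p under 0.05.

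On log2(TPM + 1), and on log2(TPM + 0.1) where 2 values are given, the log2 fold change in P3 and P4 against P1 and P2 hESCs was -0.13 for HMGCS1, -0.05 for SQLE and -0.10 for LSS. In P2 against P1 hESCs it was 0.10 and 0.11 for INSIG1 and 0.08 for SREBF2. In P3 against P2 hESCs it was -0.21 and -0.22 for HMGCS1, -0.05 for FDFT1, -0.27 for DHCR7 and -0.32 for SREBF2, and in P4 against P3 hESCs 0.01 for SREBF2. With the mitochondrial covariate it was 0.11 for LSS and 0.06 for DHCR7 in P2 against P1 hESCs, and -0.29 for DHCR7 and -0.03 for SREBF2 in P3 against P2 hESCs. Of the 3 samples over 10% mitochondrial counts, only the second P1 sample was early. For P3 and P4 against P1 and P2 hESCs, these 3 gave -0.17 for SQLE and -0.22 for INSIG1. The 5 samples under 10% gave -0.02 for LSS, 0.51 for INSIG2 and 0.07 for SREBF1, and the 4-group model gave 0.11 for INSIG2.

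With 1 sample left out in turn, where an arm of 1 sample was assumed to vary like the other lines, the values in P3 and P4 against P1 and P2 hESCs ran from -0.12 to 0.22 for HMGCS1, -0.03 to 0.20 for SQLE, -0.01 to 0.29 for LSS, -0.38 to 0.07 for DHCR7, -0.19 to 0.08 for SREBF2, -0.31 to 0.44 for INSIG2, -0.28 to 0.31 for SREBF1 and -0.27 to 0.12 for SCAP. In P2 against P1 hESCs they ran from -0.02 to 0.38 for HMGCS1, -0.35 to 0.01 for SQLE, -0.59 to 0.09 for INSIG1, -0.82 to 0.03 for DHCR7, -0.51 to 0.11 for SREBF2 and -0.47 to 0.04 for IDI1. In P3 against P1 hESCs they ran from -0.01 to 0.42 for LSS, -0.75 to 0.19 for DHCR7 and -0.35 to 0.27 for SREBF2. In P4 against P1 hESCs they ran from -0.37 to 0.07 for HMGCS1, -0.30 to 0.42 for INSIG1, -0.70 to 0.11 for LSS, -0.61 to 0.03 for SREBF2 and -0.26 to 0.12 for IDI1. In P3 against P2 hESCs they ran from -0.02 to 0.46 for HMGCS1, -0.28 to 0.50 for DHCR7 and -0.03 to 0.33 for SREBF2, and in P4 against P3 hESCs from -0.55 to 0.23 for DHCR7.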
